A study of Mus musculus with 7 samples.

Results

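JAK-STAT signalling carries messages from cytokine receptors to the nucleus, and the 10 genes described here encode its core in blood-forming cells: the kinases Jak1 and Jak2, the transcription factors Stat3, Stat5a and Stat5b, the feedback inhibitors Socs1, Socs2, Socs3 and Cish, and the kinase gene Pim1. They were chosen by name, not by any measured value, as the rows of a bone marrow RNA sequencing table whose Ensembl ID carries one of these symbols in GENCODE M21. All 10 were found among the 49315 genes of the table, and all 10 passed the filter on low counts, which left 17920 genes to test. All libraries were made from bone marrow. The mice were fed chow and had hindlimb ischemia, in which blood flow to a leg is cut off. The 3 flox libraries are from mice with the genotype miR-181a2b2flox/flox, whose microRNA cluster is flanked by recombination sites, and the 4 KO libraries from mice with the genotype miR-181a2b2-/-, which lack the cluster. The titles call the flox libraries WT. Diet and limb surgery are shared by both groups, so neither can be assessed here. The labels give no age, sex or strain and name no recombinase. They do not state that each library is a different mouse, and p-values therefore reflect library-to-library spread alone, part of which may be technical.

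A cytokine that binds its receptor brings JAK kinases together. They phosphorylate the receptor and then a STAT protein, which pairs, enters the nucleus and switches on target genes. SOCS proteins and CIS, the product of Cish, are among those targets; they bind the receptor or the kinase and shut the signal down, so their transcripts are often read as a trace of recent signalling. In marrow, JAK2 serves the receptors for erythropoietin, thrombopoietin and interleukin 3, STAT5 acts in red cell, platelet and lymphoid precursors, and STAT3 acts below the granulocyte colony-stimulating factor receptor, where SOCS3 is its main brake.

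Total counts ran from 46151300 to 51688514 per flox library and from 43110251 to 48320848 per KO library. Member counts ran from 162 (Socs1 in flox 1, where counting alone gives a standard deviation of 7.86%) to 20181 (Jak1 in flox 1, 0.704%). Levels are CPM, read counts divided by library sizes that were scaled by the trimmed mean of M-values. The library flox 1 stood apart on the first principal component, at -58.7 against -14.2 and -5.48 for the other flox libraries and 16.6 to 23.2 for KO. Summed B lineage genes stood at 76.5, 507 and 807 CPM in flox 1 to 3 and ran from 842 to 1101 in KO. Summed intestinal epithelial genes ran from 31.7 to 33.2 CPM in flox and from 69.1 to 75.4 in KO. The part of these genes in the results below was not tested. In bulk samples, fewer cells of a type and less RNA per cell cannot be told apart.

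None of the 10 genes passed the test between KO and flox, and for 7 of them the 95% interval lay within 1.5-fold. In an edgeR quasi-likelihood test with Benjamini-Hochberg adjustment over all tested genes, 0 of 10 passed an adjusted p of 0.05, where 0.145% of all tested genes did (0.134% higher and 0.0112% lower in KO). At an unadjusted p of 0.05 the count was also 0 of 10, against 14.1% of all tested genes (5.89% higher and 8.17% lower). DESeq2 called 0 of 10 (2.02% of all tested genes) and limma-voom 0 of 10 (0.0725%). The 95% interval of the fold change lay within 1.5-fold in both directions for 7 of 10, namely Jak1, Jak2, Stat3, Stat5a, Stat5b, Socs2 and Pim1, as it did for 55.2% of all tested genes. For Socs1, Socs3 and Cish the interval reached past that bound, so a change of that size is not excluded for them. The median log2 fold change, KO minus flox, was -0.071 over the 10 genes and -0.0080 over all tested genes. The fitted value was below 0 for 8 of the genes and for 51.9% of all tested genes, and above 0 for 2 of the genes and 48.1% of all. It was below 0 for 7 under each of the 3 other scalings, with Jak2 changing sign. The groups did not overlap for 1 of the 10 genes, Stat5b, and for 13.6% of all tested genes.

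**Figure D1:**
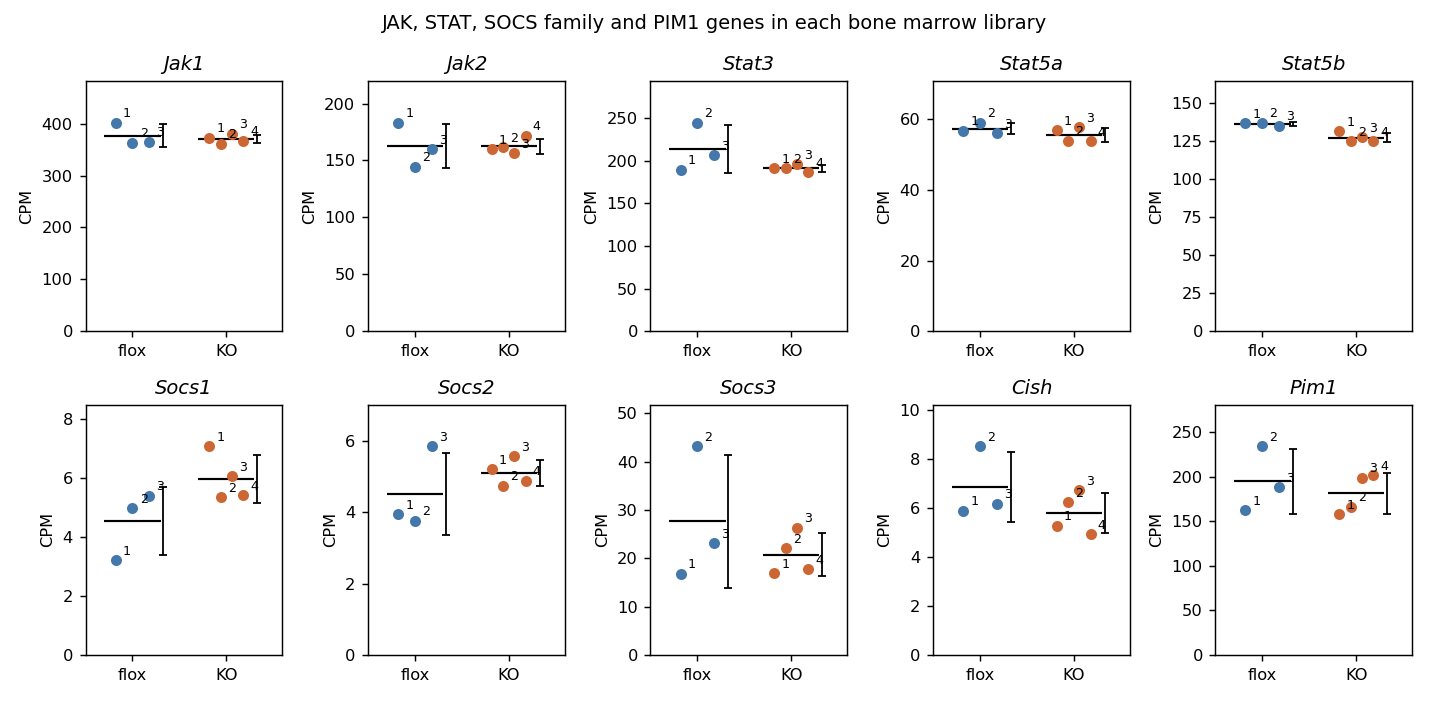
CPM of each gene (vertical axes, each starting at 0) in the 3 flox and 4 KO libraries; numbers beside the points are replicate numbers, horizontal lines group means and bars 1 SD. Flox 2 is the highest point for Stat3, Stat5a, Stat5b, Socs3, Cish and Pim1, and only Stat5b has groups that do not overlap.

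The kinase genes were level between the groups. Jak1 (chromosome 4, 101152367 to 101265282, minus strand, GRCm38) encodes the kinase shared by interferon and interleukin 6 family receptors. It stood at 402, 363 and 366 CPM in flox 1 to 3 and at 373, 362, 381 and 367 CPM in KO 1 to 4. Flox 1 was the highest, and the remaining libraries of both groups lay within the same narrow range. KO minus flox came to -0.024 on the log2 scale in edgeR (95% interval -0.18 to 0.13, SE 0.069), with an adjusted p = 0.922.

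Jak2 (chromosome 19, 29251828 to 29313080, plus strand) encodes the kinase of the erythropoietin and thrombopoietin receptors. It stood at 183, 145 and 160 CPM in flox and at 160, 161, 157 and 172 CPM in KO. The flox libraries held both the highest and the lowest value, and all KO values lay between them. In edgeR the log2 difference was -0.00245 (interval -0.19 to 0.19, SE 0.086), with an adjusted p = 0.995. The ratio of Jak1 to Jak2 counts, which does not depend on library size, ran from 2.14 to 2.51 over the 7 libraries, with groups that overlapped.

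The STAT genes lie side by side on chromosome 11, and all were slightly lower in KO without passing the test. Stat3 (100885098 to 100939540, minus strand) encodes the factor activated by interleukin 6 and granulocyte colony-stimulating factor. It stood at 189, 245 and 207 CPM in flox and at 191, 192, 196 and 187 CPM in KO. The KO libraries were almost identical, while flox 2 stood well above and flox 1 lay inside the KO range. edgeR put the log2 difference at -0.16 (interval -0.36 to 0.037, SE 0.088, adjusted p = 0.450), and at -0.035 without flox 2.

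Stat5b (100780731 to 100850724, minus strand) encodes the STAT5 form best known below the growth hormone receptor. It stood at 137, 137 and 135 CPM in flox and at 131, 125, 128 and 125 CPM in KO. Every KO library was below every flox library, so the groups did not overlap, which was also so, with KO lower, for 7.41% of all tested genes. The size was small, at 136 ± 1.05 CPM (SD, n = 3) against 127 ± 3.05 CPM (SD, n = 4), a mean 6.58% lower. On the log2 scale edgeR gave -0.098 (interval -0.23 to 0.033, SE 0.059, adjusted p = 0.497). By exact permutation of the 7 libraries (two-sided, 35 arrangements) p was 0.0571, and 0.0286 is the smallest this design can give.

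Stat5a (100859351 to 100885169, plus strand) encodes the STAT5 form known for its part in prolactin signalling, and both forms act in blood cells. It stood at 56.8, 59.0 and 56.1 CPM in flox and at 56.9, 54.0, 57.7 and 53.9 CPM in KO. The groups overlapped, and the libraries spread over only a few CPM. The edgeR log2 difference was -0.043 (interval -0.19 to 0.099, SE 0.064, adjusted p = 0.825), and -0.0048 without flox 2.

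The balance of the paired STAT5 genes differed narrowly between the groups, and the adjusted test could not decide on it. Stat5a counts were 41.6% to 45.2% of Stat5b counts over the 7 libraries. As a log2 ratio this was -1.25 ± 0.030 (SD, n = 3) in flox and -1.19 ± 0.033 (SD, n = 4) in KO, and the groups did not overlap. An exact two-sided permutation test gave p = 0.0286, the smallest possible, and 0.114 adjusted over the 4 ratios tested. A ratio that alone reaches the smallest p cannot fall below 0.114 after this adjustment, so no conclusion is drawn from it. The groups nearly touched: flox 2 and KO 4 both round to -1.21. Of the distinct 50-base windows in annotated transcripts, 8.21% of those of Stat5a also occur in Stat5b and 10.98% of those of Stat5b in Stat5a, so how the authors' counting treated such reads could move both genes. Stat3 and Stat5a share 72 exon bases on opposite strands, 0.756% and 1.01% of their exon lengths.

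**Figure D2:**
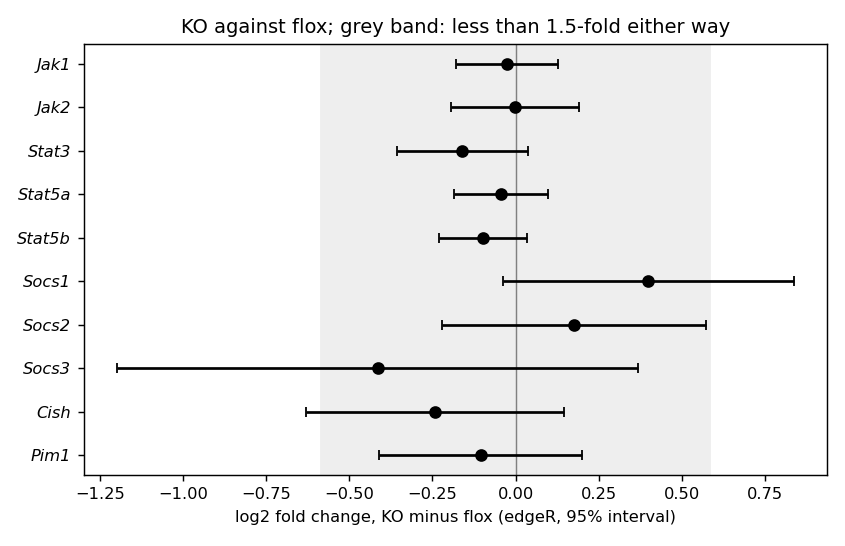
Fitted log2 fold changes, KO minus flox (horizontal axis), with 95% intervals from edgeR for each gene; the grey band marks changes under 1.5-fold. All intervals include 0, and those of Socs1, Socs3 and Cish reach beyond the band.

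The feedback genes varied more between libraries than the kinase and STAT genes. Socs3 (chromosome 11, 117966079 to 117970047, minus strand) encodes the inhibitor that docks on the shared interleukin 6 receptor chain and on the granulocyte colony-stimulating factor receptor. It stood at 16.8, 43.2 and 23.1 CPM in flox and at 16.9, 22.2, 26.4 and 17.7 CPM in KO. Flox 2 alone was high, flox 1 and KO 1 were equally low, and all KO values lay inside the flox range. The highest flox library was 2.57 times the lowest, and the highest KO library 1.56 times the lowest. Its coefficient of variation in flox, 49.7%, was larger than that of 92.9% of all tested genes. With such spread, edgeR put the log2 difference at -0.41 (interval -1.20 to 0.37, SE 0.33, adjusted p = 0.647). Without flox 2 it was 0.072, on the other side of 0, and without flox 1 it was -0.68 (edgeR adjusted p = 0.411).

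The promoter of Socs3 is shown because it holds the letters of a STAT binding motif, TTCNNNGAA, which reads the same on both strands. The 250 bases before the RefSeq start of Socs3 (chr11:117969367-117969616, minus strand, GRCm38.p6), with the motif in capitals, read as follows.
Socs3 promoter: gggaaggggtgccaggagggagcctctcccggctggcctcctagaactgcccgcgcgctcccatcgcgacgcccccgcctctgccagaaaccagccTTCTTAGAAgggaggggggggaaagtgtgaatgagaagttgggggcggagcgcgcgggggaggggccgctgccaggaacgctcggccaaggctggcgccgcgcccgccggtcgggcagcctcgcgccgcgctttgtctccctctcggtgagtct
The motif begins 154 bases before the start. In windows of 300 bases, 250 before and 50 after each RefSeq start, 8.30% of 32851 windows held at least 1 such motif and 0.457% held 2 or more. Of the 10 genes, 9 matched a RefSeq window, all but Socs2. Only Socs3 and Cish held the motif, and the windows of the other 7 did not hold these letters. In Cish it occurs as 2 copies just after the RefSeq start (chr9:107296659-107296667 and chr9:107296670-107296678, plus strand), shown with 10 bases on each side.
Cish, first copy: ccgcccagttTTCCTGGAAagttcttgga
Cish, second copy: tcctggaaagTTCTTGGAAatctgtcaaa

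Cish (chromosome 9, 107296026 to 107302784, plus strand) encodes CIS, the feedback inhibitor of STAT5 signalling from erythropoietin and related receptors. It stood at 5.90, 8.53 and 6.18 CPM in flox and at 5.29, 6.25, 6.73 and 4.94 CPM in KO. Flox 2 was again the highest, and the other flox libraries lay inside the KO range. KO minus flox was -0.24 on the log2 scale (edgeR interval -0.63 to 0.15, SE 0.17, adjusted p = 0.587), and -0.041 without flox 2. Cish counts were 2.76% to 4.35% of the summed Stat5a and Stat5b counts, and Socs3 counts 8.82% to 17.6% of Stat3 counts. Both ratios overlapped between the groups, with exact two-sided permutation p = 0.429 and p = 0.657.

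Socs1 (chromosome 16, 10782240 to 10785536, minus strand) encodes the inhibitor of interferon signalling that blocks the JAK kinases directly. It stood at 3.23, 4.98 and 5.41 CPM in flox and at 7.08, 5.35, 6.07 and 5.42 CPM in KO. Only flox 3 reached into the KO range, and flox 1 and KO 1 marked the ends. Group levels were 4.54 ± 1.15 CPM (SD, n = 3) and 5.98 ± 0.803 CPM (SD, n = 4). The edgeR log2 difference was 0.40 (interval -0.039 to 0.84, SE 0.20, adjusted p = 0.393). Its p was the lowest of the 10 genes and ranked 3169 among all tested genes. By exact two-sided permutation p was 0.0571. Without flox 1 the log2 difference was 0.20 and without flox 3 it was 0.54 (edgeR adjusted p = 0.278).

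Socs2 (chromosome 10, 95385362 to 95417180, minus strand) encodes the inhibitor of growth hormone receptor signalling. It stood at 3.94, 3.77 and 5.85 CPM in flox and at 5.21, 4.76, 5.58 and 4.89 CPM in KO. The flox libraries held the highest value and both lowest values, with KO in between. Its edgeR log2 difference was 0.18 (interval -0.22 to 0.57, SE 0.18, adjusted p = 0.724), and without flox 3 it was 0.40 (edgeR adjusted p = 0.269), without flox 1 0.083 and without flox 2 0.075.

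The cluster missing in KO encodes mature microRNAs of the miR-181 family, which repress transcripts that pair with their seed, bases 2 to 8. They are shown because of the 10 genes only Socs2 and Cish carry a full seed match in their longest annotated 3' UTR; RefSeq sequences (GRCm38.p6), with the seed in capitals, are given 5′ to 3′. The mature forms lie at chr2:38852741-38852763 and chr2:38853845-38853868, plus strand.
mmu-miR-181a-5p: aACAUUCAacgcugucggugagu
mmu-miR-181b-5p: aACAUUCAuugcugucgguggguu
Both share 1 seed, whose match is TGAATGT. The longest annotated 3' UTR of Socs2 holds it followed by A (an 8mer site, chr10:95388037-95388044, minus strand), and that of Cish holds it followed by another base (a 7mer-m8 site, chr9:107301544-107301550, plus strand), with the match in capitals.
Socs2 site: cagcatccctgTGAATGTAacacacatagt
Cish site: caaagtagtccTGAATGTcctgggcccat
Of 14319 tested genes with a 3' UTR, 18.5% held such a site, against 2 of the 10 here. The site-bearing genes lay on opposite sides of 0, Socs2 at 0.18 and Cish at -0.24, and neither passed the test. Mature microRNAs were not measured in these poly(A)-selected libraries.

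Pim1 (chromosome 17, 29490753 to 29496112, plus strand), a survival kinase gene switched on by STAT3 and STAT5, did not differ beyond the spread either. It stood at 162, 234 and 188 CPM in flox and at 158, 166, 199 and 202 CPM in KO. Flox 2 was the highest, KO 1 the lowest, and the rest were mixed. edgeR gave a log2 difference of -0.10 (interval -0.41 to 0.20, SE 0.14, adjusted p = 0.802), and 0.064 without flox 2. Pim1 shares 488 exon bases, 14.5% of its exon length, with the antisense gene Gm26885, which had at most 212 counts in a library. Cish overlaps Gm17041, with 0 counts in all libraries (a count of 0 allows up to 3 counts, 0.0580 to 0.0696 CPM), and Gm17040, with at most 8 counts.

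Levels between genes were compared per kilobase of merged exons. The order from the top was Pim1, Jak1, Jak2, Stat5b, Stat3, Socs3, Stat5a, Socs1, Cish and Socs2. Pim1 (46.9 to 69.6 CPM per kb over the 7 libraries) and Jak1 (50.03 to 55.6) overlapped, with Pim1 above Jak1 in 4 of 7 libraries. Jak2 (28.7 to 36.4) was below Jak1 and above Stat5b in every library. Stat5b (22.5 to 24.7) and Stat3 (19.6 to 25.7) overlapped, as did Socs3 (5.82 to 14.9) and Stat5a (7.55 to 8.28). Socs1 (1.11 to 2.44) and Cish (0.769 to 1.33) overlapped in range, though Socs1 was the higher in 7 of 7 libraries, and Socs2 (0.396 to 0.614) was below both. Socs3 was thus the most abundant of these feedback genes per length, and the others stood far below the kinase and STAT genes. Merged exons include rare transcript forms, so the level of a gene with long minor exons is understated on this scale. The order of Socs1, Cish and Socs2 rests on merged lengths of 2908, 6419 and 9531 bases. Without division by length, mean CPM was 6.87 for Cish and 4.54 for Socs1 in flox, and 5.80 and 5.98 in KO.

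**Figure D3:**
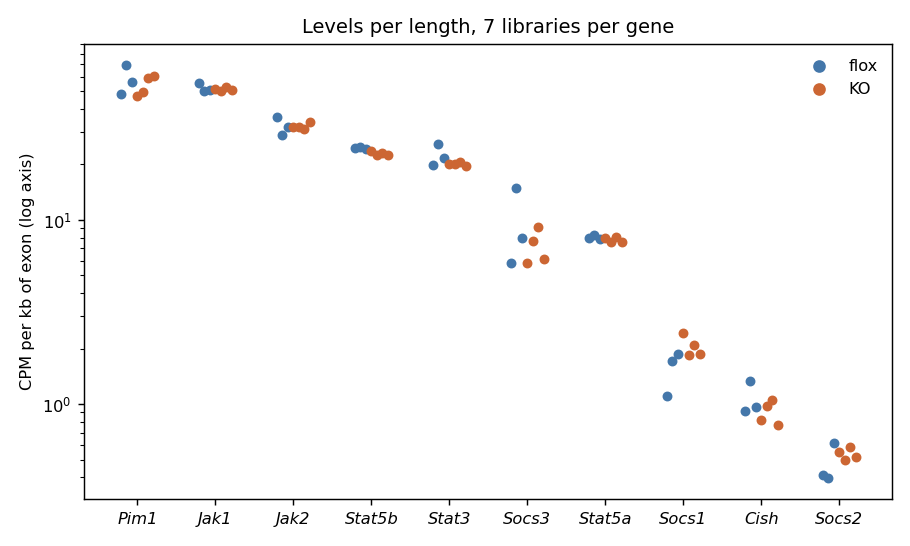
CPM per kilobase of merged exons (logarithmic vertical axis) for the 10 genes in order of mean level, 1 point per library. Pim1 and Jak1 share the top, from 46.9 to 69.6 CPM per kb, and Socs2 is lowest, at 0.396 to 0.614.

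Much of the spread of Socs3, Cish, Pim1 and Stat3 followed 1 library, flox 2. Flox 2 was the highest of the 7 libraries for 6 of 10 genes and the lowest for 2 (Jak2 and Socs2), so that it was an extreme for 8 of 10, where it was an extreme for 41.7% of all tested genes. On the log2 scale flox 2 exceeded the mean of the 7 libraries by 0.94 for Socs3, 0.46 for Cish, 0.34 for Pim1 and 0.29 for Stat3, and its value for Jak2 was -0.16. For Jak1, Jak2 and Socs1 the largest deviation was that of flox 1, at 0.11, 0.18 and -0.69. The coefficient of variation was larger in flox than in KO for 8 of 10 genes, and for 54.2% of all tested genes. Flox 2 also had the highest summed level of late neutrophil genes, 43522 CPM against 31325 to 33972 in the other flox libraries and 24986 to 31484 in KO. It was highest for neutrophil primary granule genes too, at 6372 CPM against 2615 to 4145 in the other 6 libraries. It had the lowest summed erythroid level, 32080 CPM against 44227 to 67166. The part of cell composition in the Socs3, Cish, Pim1 and Stat3 values was not tested.

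**Figure D4:**
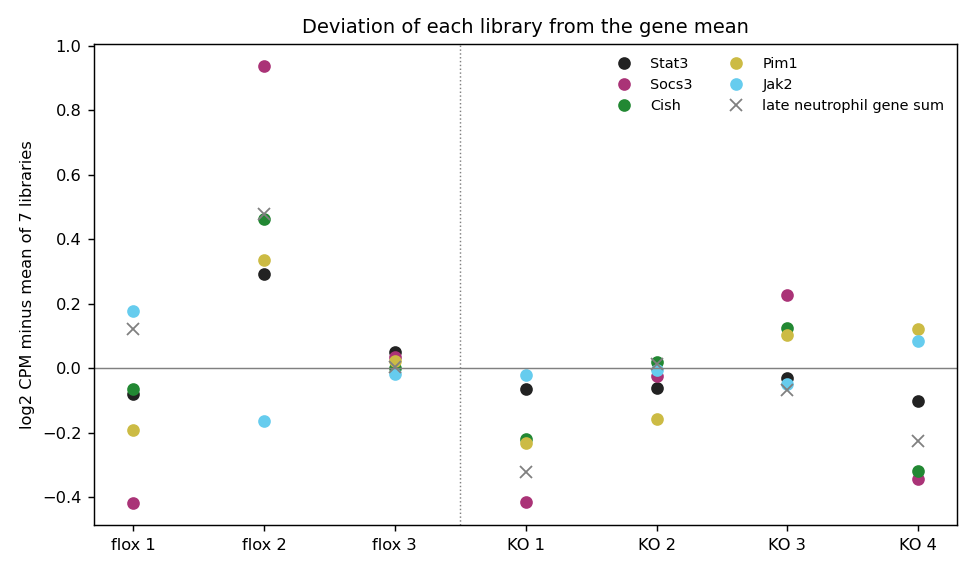
Deviation of log2 CPM from the mean of the 7 libraries (vertical axis) for 5 genes, and the same for the summed CPM of late neutrophil genes (crosses), by library. Flox 2 is the highest library for Socs3 (0.94), Cish (0.46), Pim1 (0.34), Stat3 (0.29) and the neutrophil sum (0.48), and lowest for Jak2.

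Across the 7 libraries, Socs3 and Cish had the highest Pearson r of the 45 pairs among the 10 genes, though not the highest rho (Pearson r = 0.94, exact permutation p = 0.00238; Spearman rho = 0.82, exact permutation p = 0.0341). After adjustment over the 45 pairs p was 0.107 for r and 0.36 for rho, and 0 of 45 pairs passed, with 6 at an unadjusted p under 0.05. Without the libraries farthest from the Socs3 median, flox 1 and flox 2, r was 0.95. With only flox 2 left out, r was 0.82. Stat3 and Socs3 came next by r (r = 0.92, exact permutation p = 0.0113, adjusted 0.195; rho = 0.86, exact permutation p = 0.0238, adjusted 0.36), with r = 0.80 without flox 2 and flox 3 and 0.64 without flox 2 alone. Jak2 ran against Socs3 (r = -0.84, exact permutation p = 0.0216, adjusted 0.195; rho = -0.79, exact permutation p = 0.0480, adjusted 0.36), with r = -0.60 without flox 1 and flox 2 and -0.68 without flox 2 alone. With fewer than 6 libraries in each group, no r is given within groups.

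Outside the pathway, the genes most like Socs3 over the 7 libraries were Stx18 (r = 0.99), Elac2 (0.98), Rab1b (0.98), Klhdc4 (0.97) and Ctnnbl1 (0.97). Those most like Cish were Tmem120a (0.99), Nop56 (0.99), Ifitm1 (0.99), Aldh16a1 (0.98) and Selplg (0.98). These are the top of 11192 genes compared, of which 183 reached r = 0.9 with Socs3 and 208 with Cish. All 10 of these genes were highest in flox 2, from 21.5 CPM for Stx18 to 369 CPM for Selplg. Their choice favours this, since Socs3 and Cish were themselves highest in flox 2.

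The rest of the pathway showed no gene called by edgeR either. The 6 lists held other JAK and STAT genes, other SOCS box and PIM genes, and phosphatases with adaptors and PIAS inhibitors. They also held cytokines, cytokine receptors, and textbook STAT3 and STAT5 targets. In these lists edgeR called 0 genes, where it called 0.145% of all tested genes, and limma-voom called 0 (0.0725% of all tested genes). DESeq2 called Cblb (1 of 13 phosphatases, adaptors and inhibitors), Prlr (1 of 32 receptors) and Junb (1 of 24 targets), where it called 2.02% of all tested genes. Among the other 6 JAK and STAT genes, 0 had an unadjusted edgeR p under 0.05, where 14.1% of all tested genes did. Their median log2 fold change was -0.081, which was 0.062 without flox 2. Those with the lowest p were the interferon signal gene Stat2 (0.16, edgeR adjusted p = 0.575), the kinase gene Tyk2 (-0.095, 0.692), the interleukin 12 signal gene Stat4 (-0.093, 0.711) and the interleukin 4 signal gene Stat6 (-0.069, 0.729).

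Of the other SOCS box and PIM genes, 5 of 6 were higher, with a median of 0.20, where 48.1% of all tested genes were higher. Socs7, an adaptor of this family, stood at 29.5, 29.1 and 33.8 CPM in flox and at 37.7, 34.4, 37.1 and 38.8 CPM in KO. These groups did not overlap, as with KO higher for 6.22% of all tested genes, and edgeR gave a log2 difference of 0.27 (SE 0.081, adjusted p = 0.231). Socs7 was named for its low p, which favours groups that do not overlap. Pim2 gave 0.33 (0.428), Socs4 0.15 (0.518) and Socs5 0.25 (0.625), with edgeR adjusted p in parentheses. Socs6, chosen after its value was seen, was the 1 lower gene, at -0.049.

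Among 13 phosphatases, adaptors and PIAS inhibitors, 5 were higher and 8 lower, where 51.9% of all tested genes were lower. The median was -0.084 (-0.037 without flox 2). Cblb, a ubiquitin ligase that restrains receptor signalling in lymphocytes, stood at 25.7, 25.4 and 31.8 CPM in flox and at 34.3, 37.1, 35.8 and 41.5 CPM in KO. The groups did not overlap, as with KO higher for 6.22% of all tested genes, and Cblb too was named for its low p, which favours this. The log2 difference of 0.43 (SE 0.10) missed the threshold in edgeR (adjusted p = 0.171) and passed in DESeq2 (adjusted p = 0.0233). The phosphatase gene Ptpn11 gave -0.15 (edgeR adjusted p = 0.366), the ubiquitin ligase gene Cbl -0.18 (0.369) and Sh2b3, an adaptor that damps JAK2 signalling, 0.16 (0.374).

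Upstream, 32 of 32 receptor genes and 11 of 23 cytokine genes could be tested. Of the receptors, 15 were higher and 17 lower (median -0.015, and 0.040 without flox 2), and 9 had an unadjusted edgeR p under 0.05, 4 higher and 5 lower, where 14.1% of all tested genes did (5.89% higher and 8.17% lower). Il6st, the signalling chain shared by interleukin 6 family receptors, stood at 85.8, 81.6 and 71.3 CPM in flox and at 65.7, 64.4, 61.1 and 66.3 CPM in KO. All KO libraries were below all flox libraries, as was so for 7.41% of all tested genes. The log2 difference was -0.31 (SE 0.078), with an adjusted p of 0.192 in edgeR and 0.0553 in DESeq2. Prlr, the prolactin receptor gene, was low throughout, at 0.599 ± 0.122 CPM (SD, n = 3) and 1.33 ± 0.220 CPM (SD, n = 4). Every KO library was above every flox library, as was so for 6.22% of all tested genes. Il6st and Prlr were named for their low p, which favours groups that do not overlap. The log2 difference of Prlr was 1.15 (SE 0.24), with an adjusted p of 0.131 in edgeR and 0.0132 in DESeq2. The lymphoid receptor genes Il7r (1.18, edgeR adjusted p = 0.254) and Il2rb (0.23, 0.230) had higher fitted values in KO without passing the test. Il7r and the B lineage sum given above were both lowest in flox 1. Summed T and NK cell genes, a list that holds Il2rb, ran from 92.0 to 94.3 CPM in flox and from 107 to 121 in KO; their part was not tested.

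Of the tested cytokine genes, 3 were higher and 8 lower, with a median of -0.28. Fitted values were below 0 for 51.9% of all tested genes. Summed over all 23 listed genes, cytokine CPM was higher in KO, at 66.1 to 86.3 against 56.6 to 61.2 in flox. Osm, 1 of the 3 higher genes, held the largest part of that sum, so the sum does not stand for the list as a whole. Osm, which encodes the interleukin 6 family cytokine oncostatin M, stood at 29.9, 25.6 and 22.9 CPM in flox and at 41.5, 47.3, 36.5 and 26.9 CPM in KO. KO 4 lay inside the flox range, and the log2 difference was 0.54 (SE 0.18, edgeR adjusted p = 0.267). Ctf1 (-0.84, edgeR adjusted p = 0.334), Il15 (-0.28, 0.346) and Il7 (-0.72, 0.367), a B cell precursor cytokine of stroma, had lower fitted values in KO. Ctf1 and Il7 were low, at no more than 0.406 and 1.57 CPM in any library. Summed marrow stroma and bone genes ran from 509 to 922 CPM in flox and from 319 to 491 in KO, and their part was not tested. Il3, Epo and Ifnb1 had 0 counts in all 7 libraries.

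Textbook STAT3 and STAT5 targets were split evenly, 12 higher and 12 lower, with a median of 0.00042, which ran from -0.053 without flox 1 to 0.079 without flox 2. Those with the lowest p were Junb (0.50, edgeR adjusted p = 0.171; DESeq2 adjusted p = 0.0132), Fos (1.21, edgeR adjusted p = 0.267), Osm and the angiogenic factor gene Vegfa (-0.25, edgeR adjusted p = 0.331). Junb and Fos are also immediate early genes, and summed genes of that list ran from 1004 to 1355 CPM in flox and from 1453 to 2172 in KO. The part of an early response in them was not tested.

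**Figure D5:**
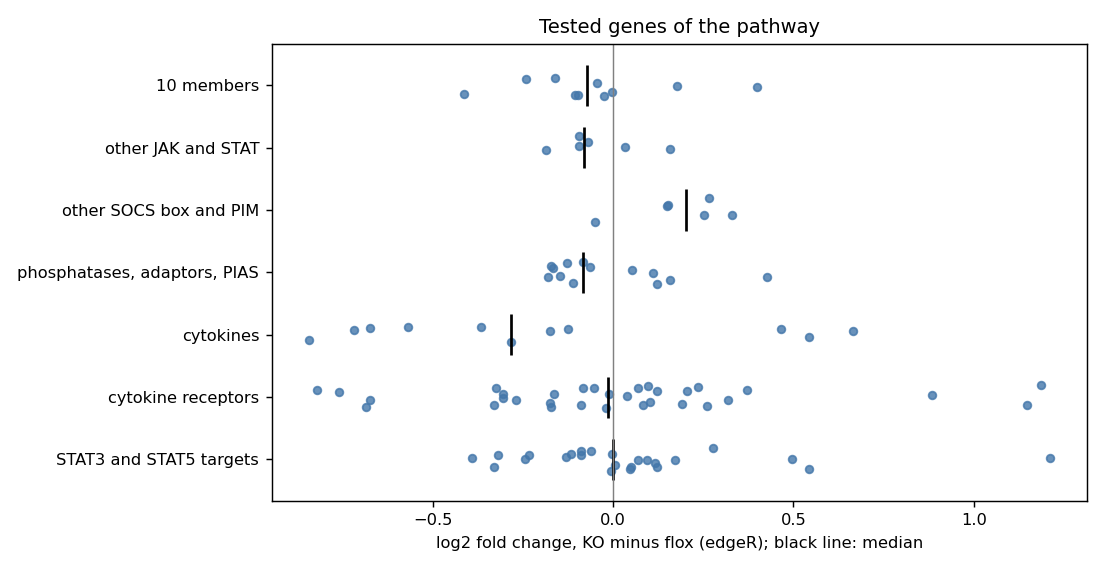
Log2 fold changes, KO minus flox (horizontal axis), of the tested genes in the 10-gene set and the 6 pathway lists, 1 point per gene, with the list median as a black line. The medians run from -0.28 for cytokines to 0.20 for the other SOCS box and PIM genes. Of the genes shown, 0 passed the edgeR test, where 0.145% of all tested genes did.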

How the data were processed

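Libraries were poly(A)-selected, per the labels' protocols. Those protocols name adipose tissue; the source field's bone marrow was used. The submitters' processing notes list Trimmomatic 0.36, STAR 2.5.2b, featureCounts from Subread 1.5.2 and the GRCm38 build. The authors deposited raw read counts per Ensembl gene; no annotation release, strand setting or multi-mapping rule is given in the sources used here. GENCODE M21 named 49056 of the 49315 IDs, and 0 columns were unmapped. No 2 libraries of a group agreed within sampling noise (chi-square per degree of freedom 19.0 to 90.6).

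With R 4.3.3, edgeR 4.0.16 (filterByExpr, minimum count 10; TMM; robust quasi-likelihood test, two-sided; threshold 0.05) was fitted over all 17920 tested genes. Its standard errors follow from the F statistic, and log2 CPM used a prior count of 2. DESeq2 1.42.0 and limma 3.58.1 were alternatives, with other scalings, filters, a replicate block and each library left out; the code was tested on simulated data. Counting intervals and floors cover counting error only.

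All 10 genes are named, with up to 4 genes of lowest p per pathway list and the 5 genes most like Socs3 and Cish; the latter were ranked by Pearson's r on log2 CPM among genes of mean log2 CPM at least 1. Earlier results of these data were known when the genes and lists were chosen, though no measured value was used to pick the 10 genes. Promoter and microRNA sequences are from RefSeq (GRCm38.p6), and 3' UTRs from GENCODE. The values of 1 gene of the pathway lists are not reported here.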

Additional observations from a re-analysis of the deposited data

Results flagged for a closer look

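Of 37 sets of 4 KO values examined, 3 had 1 library far from the others by Dixon's test at 95%; chance flags about 1 in 20 such sets. Pim2 stood at 19.1 CPM in KO 1 against 11.9 to 13.1 in the other KO libraries. Il15 stood at 8.44 CPM in KO 3 against 10.8 to 11.2 in the other KO libraries. The log2 ratio of Stat5a to Stat5b was -1.14 in KO 3, and -1.21 in each of the other KO libraries.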

How the results depend on the processing

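The count of 0 of 10 genes called held under every alternative run, and in the 160 refits of single genes the lowest adjusted p was 0.269 (Socs2 without flox 3). The count over all genes was 26, and it was 362 with DESeq2, 13 with limma-voom, 112 with no filter, 16 with non-robust dispersion, 66 at an adjusted p of 0.1 and 2 to 14 with 1 library left out; the cause was not tested. With the replicate block it was 4, as it was without KO 4, which the block also leaves out. Same-numbered libraries did not deviate together (correlations -0.022, 0.077 and 0.023), so the numbers were not taken to pair the samples. Flox 2 and flox 3 correlated best with the KO library of their own number, and flox 1 with KO 3.

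Direction changed in 14 of the 160 refits. Jak2 (-0.00245) was 0.013 with RLE size factors, 0.0089 with upper quartile, 0.021 with library size alone, 0.013 with DESeq2, 0.0035 with limma-voom, 0.0066 with no filter and 0.015 with the CPM filter. With 1 library left out, Jak2 ran from -0.062 to 0.088, Jak1 from -0.046 to 0.020, Socs3 from -0.68 to 0.072 and Pim1 from -0.23 to 0.064. The KO minus flox differences of log2 ratios ran from -0.069 to 0.028 for Jak1 to Jak2, from -0.39 to 0.10 for Socs3 to Stat3, from -0.25 to 0.0053 for Cish to Stat5a plus Stat5b, and from 0.038 to 0.072 for Stat5a to Stat5b, where 6 libraries cannot reach an exact p of 0.05. The cytokine list median of -0.28 was 0.48 with the CPM filter, which leaves fewer cytokine genes.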

Other observations

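KO 1 was the highest library for several genes of the pathway, chosen after their values were seen. Stat2 stood at 65.0 CPM there against 45.5 to 53.5 in the other 6 libraries, and Socs1 at 7.08 CPM against 3.23 to 6.07. Socs5 stood at 11.6 CPM in KO 1 against 6.28 to 7.54. In flox 2, the library with the highest Socs3, the lymphoid and myeloid kinase gene Jak3 stood at 53.0 CPM against 29.7 to 36.3 in the other 6 libraries. Flox 2 was the highest library for 22.0% of all tested genes. KO 1 was the highest for 14.7% of all tested genes and for 1 of the 10 genes, Socs1.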
